A study of Citrus reticulata with 36 samples.

Results

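The integument of ponkan ovules (Citrus reticulata, a mandarin) at 32 days after pollination (DAP) was compared between cultivar "Huagan No.4", called HG, and cultivar "Egan No.1", called EG. The comparison rests on 6 of the 36 libraries of the series, 3 of HG integument and 3 of EG integument, which were chosen by their labels for cultivar, tissue and stage and by no measured value. The series was made to study seed abortion in ponkan, and the labels do not say how the cultivars are related or which of them aborts its seeds. The same 2 cultivars were also sampled in integument at 18 and 28 DAP and in nucellus at 18, 28 and 32 DAP, with 3 libraries in each group. No treatment other than pollination is labelled. The file columns number the stages, and the highest number was read as 32 DAP, which no label states. Tissue was cut from sections by laser capture microdissection, and nanogram amounts of RNA were amplified as cDNA with random primers before sequencing. The labels do not say which tree, fruit or ovule a captured region came from, nor how regions were chosen, so libraries of a group may share a tree and the p-values would then be too small.

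The integument is the maternal envelope of the ovule and develops into the seed coat. Its growth after pollination is known to be coordinated with that of the endosperm and the embryo, which lie inside the nucellus, the tissue it encloses. In citrus, cells of the nucellus can also form asexual embryos. The deposited gene identifiers are not paired with gene names, descriptions or sequences, so no pathway or cell type gene could be looked up. The identifiers below are therefore described by their levels, their behaviour across tissues and stages, and their variation between libraries.

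Without gene names, tissue identity could be read only from tissue-preferring identifiers. By these the 6 libraries were closer to integument than to nucellus libraries, though some lay outside the range of the other integument libraries. Lists of tissue-preferring identifiers were taken from the 18 and 28 DAP libraries, at 32-fold or more and with at least 5 CPM (counts scaled to the TMM-normalised library size) in the preferred tissue. The 218 integument identifiers so defined summed to 0.351% to 0.440% of the normalised counts in HG and 0.407% to 0.582% in EG, against at most 0.0159% in any of the 18 nucellus libraries. The 80 nucellus identifiers summed to 0.0265% to 0.0621% in HG and 0.0176% to 0.0361% in EG, against 0.724% to 2.62% in nucellus libraries. The 12 integument libraries at 18 and 28 DAP, also used to choose the lists, had 0.405% to 0.542% and 0.00701% to 0.0289%. On the nucellus list HG replicates 2 and 3 (0.0292% and 0.0621%) and EG replicate 1 (0.0361%) lay above that range. On the integument list HG replicate 2 (0.351%) lay below it and EG replicate 1 (0.582%) above it. Total counts were lower in HG (16232098 to 18576497) than in EG (19498125 to 20022299), with no overlap. A set of 21 identifiers, chosen after values were seen, that varies strongly between libraries of the whole series (each correlated at 0.95 or above with c81185_g1) took 7.17% to 10.1% of the counts in HG and 3.51% to 5.95% in EG, again with no overlap. The part of depth or of this set in the differences below was not tested. In captured tissue, fewer cells of a type and less RNA per cell cannot be told apart.

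HG integument differed from EG integument mainly by identifiers with higher levels in HG. Of 57344 identifiers tested with edgeR's quasi-likelihood test, 512 (0.893%) were called higher in HG and 71 (0.124%) lower, at an adjusted p under 0.05. Over all tested identifiers the median log2 fold change, HG over EG, was -0.00, and 12.9% had an unadjusted p under 0.05. The differences upward were large: the median log2 fold change of the 512 was 3.23, 384 were at least 4-fold higher and 190 at least 16-fold. For 19 of them the 3 EG libraries had 0 counts, and the median was also 3.23 with these held at a lower bound of 3 counts over the EG group. The differences downward were smaller, with a median log2 fold change of -1.46, and 69 of the 71 were at least 2-fold but only 11 at least 4-fold lower. In 488 of the 512 and in all 71 the HG and EG libraries did not overlap. Among all tested identifiers, 9.99% lay wholly higher in HG and 9.96% wholly lower, so separation by itself was common in both directions.

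**Figure D1:**
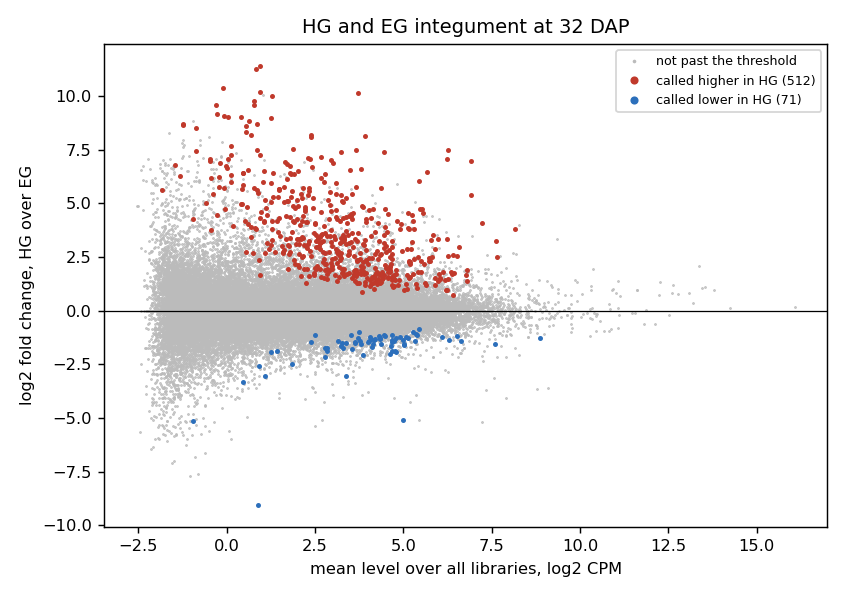
Log2 fold change of HG over EG integument at 32 DAP (y axis) against the mean level over all libraries (x axis, log2 CPM), a point per identifier. The 512 identifiers called higher in HG reach further from 0 than the 71 called lower.

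The number of calls changed with the libraries fitted. With all 36 libraries in the fit edgeR called 583, but it called 0 when fitted to the 6 libraries alone (6836 at an unadjusted p under 0.05) and 0 when fitted to the 18 integument libraries (7594 at an unadjusted p under 0.05). These fits also redid the filter and the normalisation, with 50172 and 54181 identifiers tested. On all libraries the calls numbered 1919 by DESeq2 (1474 higher and 445 lower in HG), 3775 by voom with sample quality weights (2824 and 951) and 1145 by limma on FPKM (754 and 391). Of the 512, DESeq2 also called 507 higher, voom 508 and limma 402, and all of these tools shared 397. Of the 71, they also called 71, 66 and 61 lower and shared 60. Without HG replicate 2 the edgeR count was 6, without EG replicate 2 it was 0 (with 4999 at an unadjusted p under 0.05), without EG replicate 3 it was 3, and without HG replicate 1 it was 1315. With an added alternative in which EG replicates 2 and 3 were summed to 1 library it was 3. That pair was the most alike in the series, with a chi-square of 8.41 per degree of freedom over its counts, against 32.9 or more for the other replicate pairs in this comparison. The next most alike pair of the series was EG nucellus replicates 2 and 3 at 32 DAP, at 10.7. Whether replicates 2 and 3 of EG share material was not tested.

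**Figure D2:**
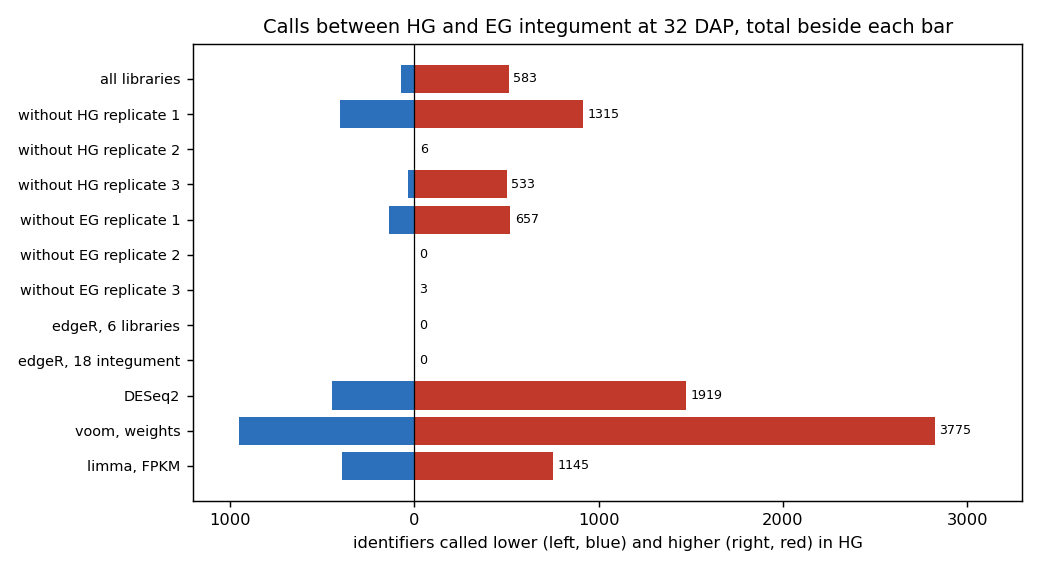
Identifiers called lower (left of 0) and higher (right of 0) in HG integument at 32 DAP, a bar per setting, with the total printed beside it. The total is 583 with all libraries, between 0 and 6 without HG replicate 2 or EG replicate 2 or 3, and 1315 without HG replicate 1.

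The 2 identifiers named in each direction had the lowest p-values among those whose HG and EG libraries did not overlap and whose higher group averaged 5 CPM or more. The identifier with the lowest p among those higher in HG, c65423_g1, had 5.84, 11.8 and 8.13 CPM in the HG libraries, against 0.399, 0.142 and 0.0949 CPM in the EG libraries. All HG libraries lay above all EG libraries, and EG was close to the detection limit with 8, 3 and 2 counts. Its log2 fold change was 5.30 (SE 0.70, edgeR adjusted p = 0.000924). In the other groups c65423_g1 was expressed at low levels, with a mean of 4.58 ± 1.20 CPM in HG nucellus and 1.34 ± 0.26 CPM in EG nucellus at 32 DAP, and of 0.335 ± 0.094 CPM in HG and 1.32 ± 1.44 CPM in EG integument at 28 DAP (SD, n = 3 each). The level of this identifier in HG integument at 32 DAP was thus the highest mean of the 12 groups and its level in EG the lowest. Without EG replicate 2 its adjusted p was 0.0595, and in the fit of the 18 integument libraries it was 0.0793.

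The identifier c49227_g1 had 22.2, 55.7 and 38.5 CPM in HG integument and 10.3, 4.70 and 6.31 CPM in EG integument. Its HG libraries spread widely. The lowest of them was above the highest EG library, as the rule for naming required. The log2 fold change was 2.45 (SE 0.34, edgeR adjusted p = 0.000924). This identifier preferred nucellus at 18 and 28 DAP, with a log2 difference between nucellus and integument of 2.92 (SE 0.17, edgeR adjusted p = 3.95e-14). At 32 DAP it averaged 84.8 ± 16.1 CPM in HG nucellus and 99.3 ± 28.5 CPM in EG nucellus (SD, n = 3 each), and the libraries of the cultivars overlapped there. Its integument level was 45.8% of the nucellus level in HG and 7.16% in EG. Over the list of 80 nucellus identifiers the median of this ratio was 3.20% in HG and 1.89% in EG. That list was cut at 32-fold or more, which holds its ratios low. With a log2 difference of 2.92, c49227_g1 is not on it, so the ratios are not like for like. Without EG replicate 2 its adjusted p was 0.0595, and in the fit of the 18 integument libraries it was 0.0793.

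On the lower side, c116206_g1 had 15.5, 11.7 and 21.3 CPM in HG integument, against 36.3, 52.7 and 46.2 CPM in EG integument. The log2 fold change was -1.48 (SE 0.26, edgeR adjusted p = 0.00966). Its 28 DAP means were 46.4 ± 2.83 CPM for HG integument and 39.4 ± 13.7 CPM for EG integument (SD, n = 3 each), where the libraries overlapped. The levels of c44518_g1 ran alike. It had 23.5, 20.6 and 31.9 CPM in HG integument at 32 DAP, against 47.9, 72.2 and 57.5 CPM in EG integument (log2 fold change -1.22, SE 0.23, edgeR adjusted p = 0.0125). Its 28 DAP means were 60.1 ± 3.15 CPM for HG integument and 52.9 ± 19.1 CPM for EG integument (SD, n = 3 each). Both identifiers preferred integument at 18 and 28 DAP, with log2 differences between nucellus and integument of -1.31 and -1.26. Neither call held without HG replicate 2 or EG replicate 2 or 3, where the adjusted p lay between 0.137 and 0.185, nor in the fit of the 18 integument libraries (0.0994 for c116206_g1 and 0.109 for c44518_g1).

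**Figure D3:**
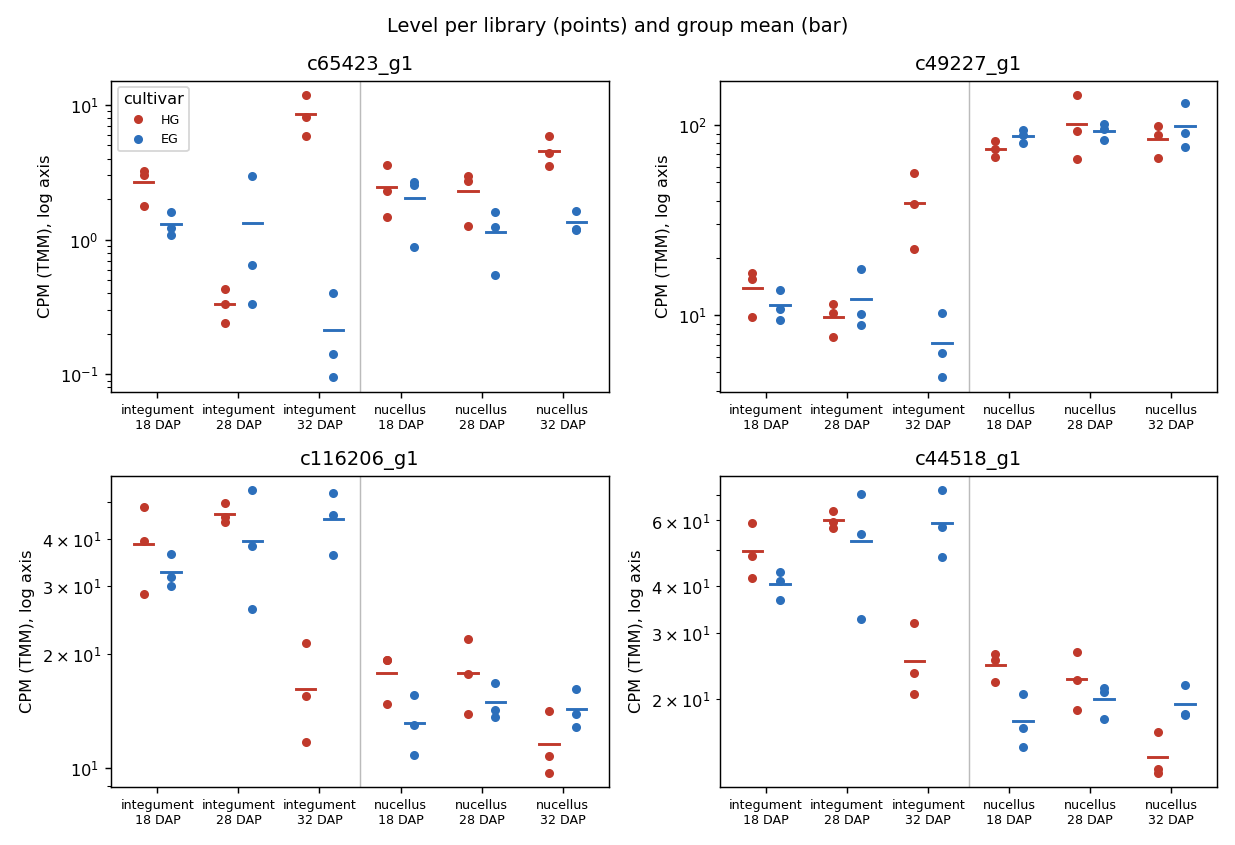
TMM-normalised CPM (log axis) of 4 identifiers in each library (points) with the group mean (bar), HG left of EG, for integument and nucellus at 18, 28 and 32 DAP. HG and EG separate at 32 DAP in integument for all 4, with HG above EG for c65423_g1 and c49227_g1 and below it for c116206_g1 and c44518_g1. The rule for naming required this separation.

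The identifiers called higher in HG did not have a uniform level among the HG libraries. HG replicate 2 was the highest HG library for 473 of the 512 (92.4%), where it was the highest for 37.4% of all tested identifiers. HG replicate 1 was the lowest for 342 (66.8%), against 30.8% of all tested. Among the EG libraries, replicate 1 was the highest for 379 of the 512 (74.0%), against 41.9% of all tested. The median log2 difference from the EG mean was 1.76, 3.43 and 1.99 for HG replicates 1, 2 and 3, on the log2(CPM + 0.5) scale. A shift of all HG libraries in the same direction follows from the choice of the 512. Replicate 2 was shifted the furthest. The gap between the lowest HG and the highest EG library was at least 2-fold for 284 of the 512 and at least 4-fold for 93. Only 53 of the 512 (10.4%) stayed within 2-fold among the libraries of each cultivar, against 55.0% of all tested identifiers, and these had a median log2 fold change of 1.53. The 71 called lower were steadier, with 40 of them (56.3%) within 2-fold in each cultivar. Their median log2 difference from the EG mean was -1.10, -1.62 and -1.45 for HG replicates 1, 2 and 3.

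The 512 identifiers also varied together in the other libraries, which entered the filter and the spread estimate behind the calls but not the HG and EG means compared. In the 30 libraries of the other 10 groups, the mean pairwise correlation of their deviations from the group means was 0.399, against 0.00252 over all tested identifiers. It was 0.570 in the 12 integument libraries at 18 and 28 DAP, 0.153 in the 18 nucellus libraries, and 0.256 in 27 libraries when EG integument at 28 DAP was left out. The 71 identifiers called lower had a mean pairwise correlation of 0.251 over the 30 libraries, 0.369 in the 12 integument libraries, 0.122 in the 18 nucellus libraries and 0.131 in the 27 libraries. Between libraries, the mean deviations of the 2 sets ran opposite to each other (Pearson r = -0.767, Spearman rho = -0.576, 30 libraries; r = -0.448 in the 27 libraries). The mean deviation of the 512 had a Pearson r of 0.367 with that of the 21 identifiers described above. These correlations are descriptions, since libraries of a series share processing and the identifiers are not independent.

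The median level of the 512 was 10.6, 31.6 and 12.4 CPM in the HG libraries and 2.49, 1.42 and 1.54 CPM in the EG libraries. That of the 71 was 12.4, 8.11 and 9.96 CPM in HG and 21.8, 32.9 and 30.9 CPM in EG. The summed level of the 512 identifiers was 1.02%, 3.14% and 1.32% of the normalised counts in HG integument and 0.393%, 0.273% and 0.272% in EG integument, and the 30 other libraries ranged from 0.338% to 1.68%. Only HG replicate 2 lay above that range and only EG replicates 2 and 3 below it. Of the 512, 304 (59.4%) had their highest group mean of the 12 groups in HG integument at 32 DAP, against 8.86% of all tested identifiers. The lowest was in EG integument at 32 DAP for 289 (56.4%), against 8.08% of all tested. Both held for 146 of the 512 and neither for 65, against 475 and 48106 of all 57344 tested. The choice of the 512 favours such extremes. For the 71, EG integument at 32 DAP was the highest group for 44 (62.0%), against 8.28% of all tested identifiers. HG integument at 32 DAP was the lowest for 44 (62.0%), against 8.72% of all tested. Both held for 19 of the 71, against 324 of all 57344 tested.

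**Figure D4:**
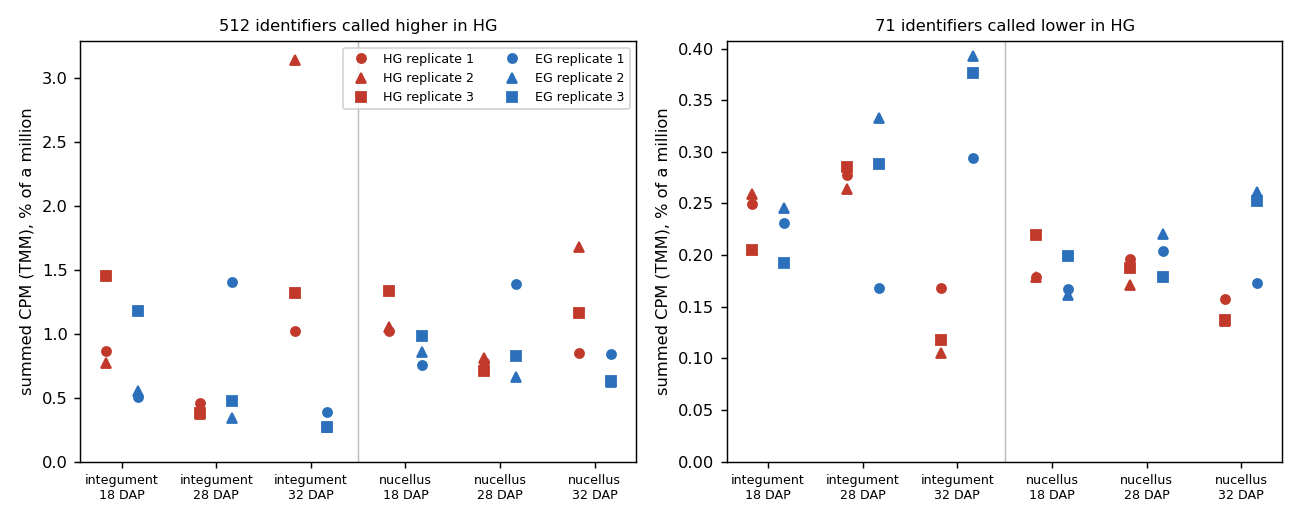
Summed TMM-normalised CPM, in % of the normalised counts, of the 512 identifiers called higher (left) and the 71 called lower (right) in each library, HG left of EG, by tissue and stage, with a marker shape per replicate number. At 32 DAP in integument the HG libraries lie above EG on the left and below EG on the right, and HG replicate 2 is the highest library on the left.

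At 32 DAP most of these identifiers were fitted in the same direction in nucellus. They were chosen for their difference in integument, so a lower median in nucellus follows from the choice. Of the 512, 457 (89.3%) were also fitted higher in HG nucellus, against 53.0% of all tested identifiers, with a median log2 fold change of 0.97. The test within nucellus called 3 of the 512 (0.586%) higher, against 0.0506% of all tested identifiers. It called 1 of the 71 (1.41%) lower, against 0.00349% of all tested. Of the 71, 62 (87.3%) were also fitted lower in HG nucellus, against 46.8% of all tested identifiers, with a median of -0.47. Nucellus and integument libraries of the same number deviated together at this stage in each cultivar, with correlations of 0.311 to 0.539 in HG and 0.310 to 0.507 in EG, so the tissues are not independent here. Without HG nucellus replicate 2 the median of the 512 in nucellus was 0.60. Whether the cultivar difference in integument differed from that in nucellus was tested as a difference of differences. EdgeR called 0 identifiers for this. Unadjusted, 2732 (4.76%) had a p under 0.05, and the calls of DESeq2 and of voom with quality weights numbered 41 and 49. With same-numbered tissues paired in a replicate block, edgeR also called 0. The lowest adjusted p was that of c49227_g1, with a cultivar difference higher in integument than in nucellus by 2.67 on the log2 scale (SE 0.46), which did not pass (edgeR adjusted p = 0.0553). The edgeR count was 5 without HG integument replicate 1, 2 without HG nucellus replicate 1 and 1 without EG integument replicate 1, and 3 without nucellus replicate 1 of EG at 28 DAP.

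Earlier in development the cultivar difference of these identifiers was small at 18 DAP and of opposite sign at 28 DAP. In integument at 18 DAP, 411 of the 512 (80.3%) were fitted higher in HG, against 48.3% of all tested identifiers, with a median log2 fold change of 0.42. That median was 0.09 without HG replicate 3 at 18 DAP. With EG replicate 1, 2 or 3 of that stage left out it was 0.25, 0.28 and 0.96. In integument at 28 DAP, 470 of the 512 (91.8%) were fitted lower in HG, against 51.5% of all tested identifiers, with a median of -1.12. This rested on EG replicate 1 at 28 DAP, without which the median was -0.10 and 287 were lower. The 71 identifiers called lower at 32 DAP had medians of -0.11 at 18 DAP and -0.01 at 28 DAP.

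The change of the cultivar difference between 28 and 32 DAP was called for 807 identifiers (1.41%), in 786 of them (1.37%) toward HG and in 21 (0.0366%) toward EG. Of the 786, 391 (49.7%) were also among the 512, which is 76.4% of the 512. Both tests use the 32 DAP libraries. The identifier c92578_g1 had 1.73, 12.8 and 7.13 CPM in HG integument at 32 DAP, against 0 counts in the 3 EG libraries. It was 150-fold higher in HG by its mean, with EG held at a bound of 3 counts over the group, which covers counting error only. At 28 DAP it had 0.223, 0.120 and 0.322 CPM in HG and 19.5, 0.443 and 0.827 CPM in EG, with EG replicate 1 far above the others (edgeR adjusted p of the difference between stages = 0.00214). The identifier c98696_g1 changed toward EG. It had 10.7, 10.3 and 11.0 CPM in HG integument at 32 DAP, against 21.1, 22.7 and 25.8 CPM in EG. It had no overlap between the cultivars there, as the rule for naming required. At 28 DAP it had 31.4, 24.5 and 17.4 CPM in HG and 18.8, 16.7 and 13.8 CPM in EG, where the cultivars overlapped. The difference between stages was -1.69 on the log2 scale (SE 0.31, edgeR adjusted p = 0.00574). The count of 807 was 37 without EG replicate 1 at 28 DAP, 2260 without EG replicate 2, and 479, 174 and 206 without HG replicates 1, 2 and 3 at that stage. Leaving out a 32 DAP library gave 1438 without HG replicate 1, 149 without HG replicate 2, and 1604, 155 and 143 without EG replicates 1, 2 and 3. A fit of the 12 compared libraries alone called 0, with 7231 identifiers under 0.05 before adjustment. DESeq2 on all libraries called 1927 and voom 5646. Between 18 and 32 DAP edgeR called 0 such changes, and 4513 identifiers were under 0.05 before adjustment. DESeq2 called 184 there and voom 274.

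**Figure D5:**
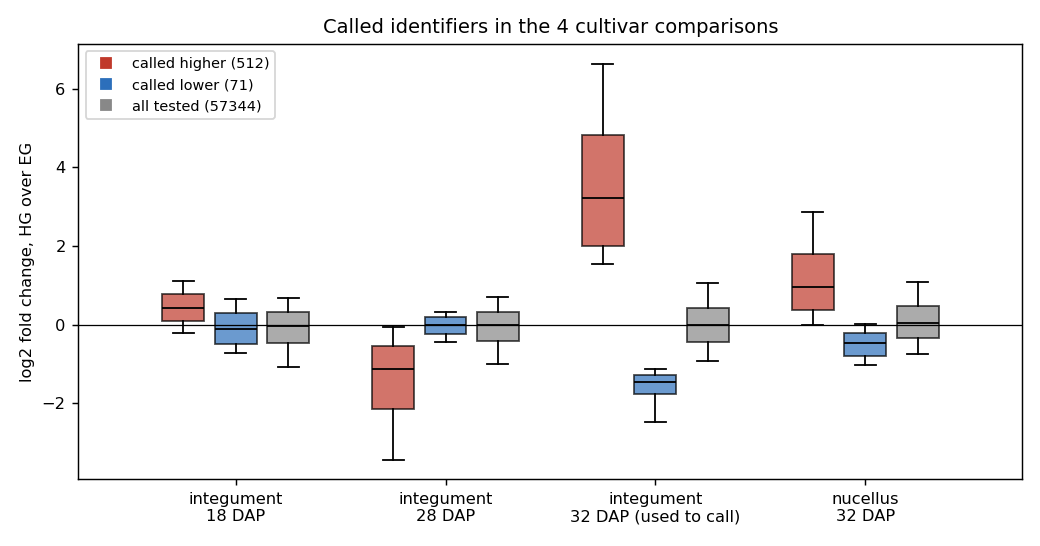
Log2 fold change of HG over EG for the identifiers called higher, those called lower and all tested, in integument at 18, 28 and 32 DAP and nucellus at 32 DAP. Boxes span the quartiles with the median as a line, and whiskers the 10th to 90th percentile. The 512 have medians of 0.42, -1.12, 3.23 and 0.97.

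From 28 to 32 DAP the median fitted difference of the 512 was 2.62 on the log2 scale in HG integument and -1.66 in EG integument, and that of the 71 was -1.09 in HG and 0.39 in EG. In HG, 188 of the 512 (36.7%) were called as rising, against 0.516% of all tested identifiers. Of the 71, 6 (8.45%) were called as falling, against 0.0366% of all tested. In EG, edgeR called 0 of the 512, 0 of the 71 and 0 of all tested identifiers, of which 2350 were under 0.05 before adjustment. DESeq2 called 63 of all tested in EG, 52 of them among the 512, and voom 2035, 88 of them among the 512. Without EG replicate 1 at 28 DAP the EG medians were -0.53 for the 512 and 0.11 for the 71, and without EG replicate 2 at 28 DAP that of the 71 was 0.64. Both cultivars' values use the 32 DAP libraries that chose the identifiers. The step from 18 to 28 DAP, averaged over the cultivars, does not compare those libraries. It was fitted downward for 481 of the 512 (93.9%), against 49.2% of all tested identifiers, with a median of -0.78. For the 71 it was fitted upward in 56 (78.9%), against 50.8% of all tested identifiers, with a median of 0.26. EdgeR called 0 identifiers for this step, with 5491 under 0.05 before adjustment, 212 of them among the 512 and 21 among the 71. DESeq2 called 181, of which 19 were among the 512 and 1 among the 71, and voom 1273, of which 136 and 7 were.

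The most numerous class among the called identifiers, 214 of the 512 and 34 of the 71, had no tissue preference called. This class held 40313 of all 57344 tested identifiers, a larger share than among the 512 or the 71. By the nucellus against integument difference at 18 and 28 DAP, which called 13.2% of all tested identifiers nucellus-preferring and 16.5% integument-preferring, 172 of the 512 (33.6%) preferred nucellus and 126 (24.6%) preferred integument. Of the 71, 8 (11.3%) preferred nucellus and 29 (40.8%) preferred integument. Read from the other side, the 7559 nucellus-preferring identifiers had a median log2 fold change, HG over EG, of 0.07 in integument at 32 DAP, and 172 (2.28%) were called higher and 8 (0.106%) lower. The 9472 integument-preferring identifiers had a median of -0.08, with 126 (1.33%) called higher and 29 (0.306%) lower. Of the 40313 with neither preference 214 (0.531%) were called higher and 34 (0.0843%) lower, against 0.893% and 0.124% of all tested identifiers. In the strict lists, 55 of the 80 nucellus identifiers were fitted higher in HG, with a median of 0.62 and 8 called higher. Of the 218 integument identifiers 89 were fitted higher, with a median of -0.47 and 9 called higher. Over all 57344 tested identifiers, 28560 were fitted higher, the median was -0.00 and 0.893% were called higher. None of either list was called lower. With 0.124% of all tested identifiers called lower, lists of 80 and 218 would often hold none. The 8 nucellus identifiers stood at a median of 13.0% of their nucellus level in HG integument and 1.12% in EG integument. These 8 were chosen as higher in HG integument, so that contrast follows from the choice. Over all 80 the medians were 3.20% in HG and 1.89% in EG. The part of nucellus RNA in these values was not tested.

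Calls in both directions were least frequent in the bin of lowest level and most frequent in that of highest level. In 5 equal bins of the mean level over the series, from low to high, 0.209%, 0.724%, 1.12%, 1.09% and 1.32% of identifiers were called higher in HG. In the same bins 1, 6, 7, 19 and 38 of the 71 called lower were found, or 0.00872%, 0.0523%, 0.0610%, 0.166% and 0.331% of the identifiers in each. The median length implied by counts and FPKM was 1994 bases for the 512, 2009 for the 71 and 1986 for all tested. In 5 equal bins of length, from short to long, 0.811%, 1.01%, 0.846%, 0.942% and 0.855% were called higher and 0.157%, 0.113%, 0.113%, 0.122% and 0.113% lower.

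A search for presence in only 1 cultivar was made at a minimum of 10 counts in each library. In integument at 32 DAP, 21 identifiers had at least 10 counts in each HG library and 0 in the 3 EG libraries, and 1 had the reverse. All 21 had counts elsewhere in EG, in 5 to 15 of its 18 libraries. The reverse case, c90561_g1, was picked by its values. It had 0 counts in HG integument at 32 DAP and 32, 11 and 43 counts in EG. It was detected in 7 of the 18 HG libraries and was not called (edgeR adjusted p = 0.0701).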

How the data were processed

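Laser-captured nucellus and integument of HG and EG ovules were profiled by RNA sequencing in 36 libraries. The tools DESeq, RSEM, Bowtie2 and cutadapt are named per the submitters' processing notes. Their roles and versions, and the assembly, were not given in the sources used here. The authors deposited whole-number read counts per identifier, used as deposited, and FPKM values rounded by the authors, used in an alternative test, on log2(FPKM + 1), and for lengths. Where RSEM made the counts they would be estimates, which no source says were rounded.

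The table held 128861 identifiers, of which 34664 had no count. Identifiers were kept by filterByExpr over the 12 groups (minimum count 10, minimum total 15), leaving 57344 with 99.9% of all counts. edgeR 4.0.16 (R 4.3.3) was fitted to all 36 libraries with TMM normalisation, 1 mean per group, 24 residual degrees of freedom and robust quasi-likelihood estimates (common biological coefficient of variation 0.439). Each comparison was a contrast, adjusted by the Benjamini-Hochberg method at 0.05. A standard error is the log2 fold change divided by the root of its F statistic. The fit was also run on counts simulated from its own spread estimates, with identifiers drawn independently. That setting lacks the shared variation between libraries described above.

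Named identifiers were the 2 with the lowest p in each direction among those called, without overlap between the HG and EG integument libraries at 32 DAP and averaging 5 CPM or more in the higher group. Alternatives used DESeq2 1.42.0, limma 3.58.1, other filters and scalings, and left-out libraries. The correlation of deviations from the group means was -0.258, -0.235 and 0.143 for same-numbered HG and EG integument libraries, so the numbers do not pair them. It was above 0.1 for every same-numbered pair of nucellus and integument within a cultivar at 32 DAP, which pairs the tissues in the data though no label says so. Identifiers, lists and tests were chosen with earlier results of these data known. Counting precision excludes amplification error, since without molecular identifiers a read is not an independent molecule.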

Additional observations from a re-analysis of the deposited data

Results flagged for a closer look

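The cultivar difference in integument differed between 32 and 28 DAP by the test of that difference for 807 identifiers. The 4 named for it were c65423_g1 (edgeR adjusted p = 0.000765) and c92578_g1 (0.00214), which changed toward HG, and c98696_g1 (0.00574) and c116206_g1 (0.0125), which changed toward EG. The value of c65423_g1 was 5.84, 11.8 and 8.13 CPM in HG and 0.399, 0.142 and 0.0949 CPM in EG at 32 DAP, and 0.334, 0.241 and 0.429 CPM in HG and 2.97, 0.332 and 0.650 CPM in EG at 28 DAP. For c65423_g1, c92578_g1 and c98696_g1 the adjusted p stayed under 0.05 without any single library of the 12 compared, with highest values of 0.0123, 0.0199 and 0.0384. For c116206_g1 it was 0.0767 without HG replicate 2, 0.0669 without EG replicate 2 and 0.05003 without EG replicate 3 at 32 DAP, and leaving out EG replicate 1 of 28 DAP gave 0.12. In a fit of the 12 libraries alone, none of the 4 passed, at adjusted p-values of 0.184 to 0.185. With 3 libraries in each group, outlying libraries were looked at here by leaving out 1 at a time.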

How the results depend on the processing

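The number of calls between HG and EG integument at 32 DAP (583) was 632 with RLE scaling, 547 with a mean of at least 5 CPM, 328 without a filter on low counts, 1919 with DESeq2, 3775 with voom and quality weights, 1145 with limma on FPKM, and 0 in the fits of the 6 compared and of the 18 integument libraries. A replicate block of same-numbered libraries gave 160, but these share only a number. Added after seeing the data, summing EG replicates 2 and 3 gave 3, and leaving out both HG replicate 2 and EG replicate 1 gave 5. Leaving out 1 library at a time gave 0 to 1315. Higher calls outnumbered lower calls in each of these settings with any call. For the difference between tissues at 32 DAP (0 calls), no filter gave 5, DESeq2 41 and voom 49, single libraries left out gave 0 to 5, and the replicate block 0. For the change between 28 and 32 DAP (807), the values were 861 with RLE, 472 without a filter, 1927 with DESeq2, 5646 with voom, 827 with a replicate block, 0 with the 12 libraries alone and 37 to 2260 with single libraries left out. For 18 against 32 DAP (0), DESeq2 gave 184, voom 274, single libraries left out 0 to 1, and the replicate block 0. Leaving out nucellus replicate 1 of EG at 28 DAP, which stands apart in the series, gave 831 calls at 32 DAP, 3 between tissues and 1033 between 28 and 32 DAP. No named identifier changed sign. The share of the 512 fitted higher in nucellus than in integument at 18 and 28 DAP was 55.1%, near the 52.6% of all tested identifiers. Over RLE, no filter, DESeq2 and voom it was 53.5% to 59.0%. The share of the 512 fitted upward from 18 to 28 DAP was 6.05%, against 50.8% of all tested identifiers. Over the same settings it was 4.69% to 6.05%. The causes of these shifts were not tested. At 16232098 to 20022299 counts per library, a group with 0 counts bounds a fold at 3 counts over its libraries.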
